A study of Mus musculus with 14 samples.

Results

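The Pax genes encode paired-box transcription factors that direct the formation of organs and of parts of the nervous system. The 9 mouse members, Pax1 to Pax9, were described here by the Polycomb mark H3K27me3 measured at each gene by Cut&Tag, in which an antibody guides the transposase Tn5 to the mark. Every peak of the deposited count table within 10 kb of the gene body of a member, as given by RefSeq on assembly GRCm38.p6, was taken, which left 156 of 74458 peaks. Pax1 held 7 peaks, Pax2 22, Pax3 27, Pax4 5, Pax5 34, Pax6 13, Pax7 26, Pax8 12 and Pax9 10. All 156 passed the filter on low counts.

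The libraries came from G4 mouse embryonic stem cells (mESCs), an F1 hybrid of 129/Sv and C57BL/6, grown with LIF on CD1 feeder cells and carrying a deletion made with CRISPR-Cas9. The Hoxa deletion had 3 H3K27me3 libraries, and the Wnt6 and Hmx1 deletions had 2 each. No column of unedited cells was analysed here, so the reference for a deletion was the pool of the libraries of the other 2, and the 3 comparisons share libraries. The 7 IgG libraries were not analysed here. The labels do not say whether libraries of a deletion came from separate clones or cultures, so p-values measure only the spread between these libraries. The paper speaks of a clone for each deletion, so an effect of a deletion cannot be told apart from a difference between clones. In a pool of 2 deletions, that spread takes in any difference between them. Each deletion removed an anchor of chromatin loops between regions marked by Polycomb, and Pax3 is the loop partner of Wnt6. The comparisons ask whether H3K27me3 at the members differed when such an anchor was absent.

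Polycomb repressive complex 2 places H3K27me3 on the promoters of developmental regulators that are silent in mESCs. CpG-rich sequence is a known feature of such promoters. Pax1 and Pax9 act in the pharyngeal pouches and the vertebral column, Pax2, Pax5 and Pax8 in kidney, midbrain, B cells and thyroid, Pax3 and Pax7 in the neural crest and muscle precursors, and Pax4 and Pax6 in the pancreas and, for Pax6, the eye.

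Library totals over the peaks lay between 6016500 and 36563541 counts, and the median Pax peak held between 49.5 and 314.5 counts. The labels were checked by the counts left in the deleted stretch, which were 0.530% ± 0.0318 (SD, n = 2) of the level in the other libraries for Wnt6, 0.133% ± 0.0341 (SD, n = 3) for Hoxa and 0.269% ± 0.0891 (SD, n = 2) for Hmx1. No Pax gene lay in a deleted stretch. The Pax3 peaks lay 3.20 to 3.30 Mb from the Wnt6 stretch on chromosome 1, and the Pax4 peaks 23.7 Mb from the Hoxa stretch on chromosome 6. Of the markers of mESCs, 7 of 8 had a peak, with a median of 7.14 CPM (counts divided by library totals that TMM factors had adjusted) per kb of peak. Sox2 (18.5), Esrrb (17.7) and Klf4 (10.2) lay above 9.37, the median of all gene loci tested, and the others lay below it. Of the markers of feeder fibroblasts, 6 of 7 had a peak, with a median of 25.5 CPM per kb. None of the 6 differed at an edgeR adjusted p under 0.05 in any comparison. Of all loci, 12% were higher and 6.06% lower at that level in the Hoxa deletion, and 0.0452% and 0.0484% differed in the Wnt6 and Hmx1 deletions. The share of feeder cells in each library was not tested.

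The reference gave promoter windows, from 250 bases before to 50 bases after a gene start, for 7 of the 9 members (10 windows), and not for Pax3 and Pax4. A peak overlapped 9 of the 10 windows, against 43.9% of 32851 windows of all genes. The windows held 7 to 30 CG dinucleotides, where the median was 7 over all windows, 21 over windows with a peak and 3 over windows without one. A set of 4 windows is shown because it spans the member with the most H3K27me3 per kb, a window with the fewest CG dinucleotides of the 10, and the covered and uncovered starts of 1 gene. They are RefSeq sequences of GRCm38.p6, 5′ to 3′ on the strand of the gene, with each CG in capitals.
Pax9, chr12:56695221-56695520, plus strand: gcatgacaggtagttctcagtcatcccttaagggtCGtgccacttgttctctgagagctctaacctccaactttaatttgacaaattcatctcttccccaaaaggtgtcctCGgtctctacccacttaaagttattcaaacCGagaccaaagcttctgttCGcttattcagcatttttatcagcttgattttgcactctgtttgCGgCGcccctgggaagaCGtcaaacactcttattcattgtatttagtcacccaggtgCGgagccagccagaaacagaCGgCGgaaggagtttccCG
Pax8, chr2:24475550-24475849, minus strand: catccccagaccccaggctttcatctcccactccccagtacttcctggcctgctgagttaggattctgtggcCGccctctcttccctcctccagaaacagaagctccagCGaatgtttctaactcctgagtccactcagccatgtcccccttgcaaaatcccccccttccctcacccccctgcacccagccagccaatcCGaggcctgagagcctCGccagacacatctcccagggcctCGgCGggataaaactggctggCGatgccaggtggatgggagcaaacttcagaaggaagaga
Pax6 window 1, chr2:105668646-105668945, plus strand: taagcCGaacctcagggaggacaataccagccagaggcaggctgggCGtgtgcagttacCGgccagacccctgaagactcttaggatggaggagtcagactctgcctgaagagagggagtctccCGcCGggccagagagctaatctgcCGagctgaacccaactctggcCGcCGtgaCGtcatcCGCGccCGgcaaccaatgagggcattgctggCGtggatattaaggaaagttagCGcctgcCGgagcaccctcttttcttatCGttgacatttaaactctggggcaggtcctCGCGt
Pax6 window 2, chr2:105682213-105682512, plus strand: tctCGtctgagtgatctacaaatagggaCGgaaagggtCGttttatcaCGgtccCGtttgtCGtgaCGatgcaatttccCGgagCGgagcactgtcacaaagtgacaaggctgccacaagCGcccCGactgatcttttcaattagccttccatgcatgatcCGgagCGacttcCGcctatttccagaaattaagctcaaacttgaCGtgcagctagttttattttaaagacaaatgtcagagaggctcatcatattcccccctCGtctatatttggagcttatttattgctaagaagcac
The Pax9 window held 11 CG dinucleotides, and a peak of 66.5 CPM on average covered only its last part, from position 56695450 on. The Pax8 window held 7, as did the first of Pax2, and lay under a peak of 157 CPM. The first Pax6 window held 18 and lay under a peak of 40.6 CPM. The second Pax6 window held 16, and its nearest peak was 258 bp away.

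H3K27me3 at the members was above that of most genes. Per kb of peak, Pax9 had the highest level, 61.5 CPM ± 3.03 (SD, n = 7), followed by Pax1 with 54.4 ± 2.67, Pax6 with 50.8 ± 3.45 and Pax2 with 50.5 ± 2.25. Pax7 followed with 37.9 ± 1.55 and Pax5 with 29.9 ± 1.01. Pax8 with 25.9 ± 1.62, Pax3 with 25.6 ± 1.32 and Pax4 with 25.3 ± 1.81 closed the order. Within a library, Pax9 was above Pax1 and Pax1 above Pax6 in 7 of 7, although the ranges over libraries of each pair overlapped. Pax6 was above Pax2 in 5 of 7, Pax8 above Pax3 in 4 and Pax3 above Pax4 in 4, so these neighbours did not differ beyond their spread. The ranges of Pax2, Pax7, Pax5 and Pax8 did not overlap with each other. The median over all 30992 gene loci tested was 9.37 CPM per kb. Of the 156 Pax peaks, 61 (39.1%) lay in the top decile of all peaks by CPM per kb.

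**Figure D1:**
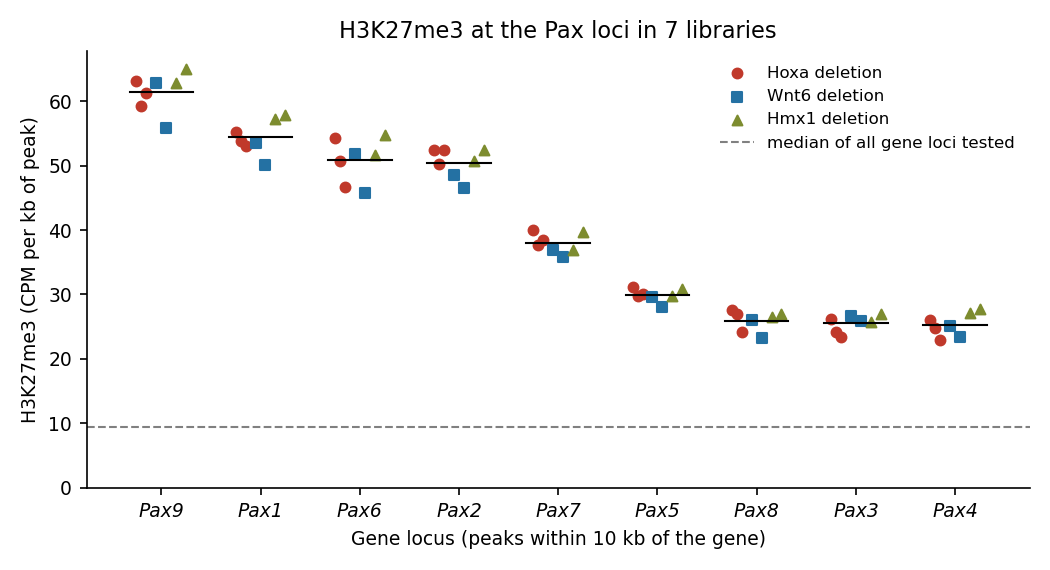
H3K27me3 in CPM per kb of peak (y axis) at the 9 Pax loci (x axis) in 7 libraries, coloured by deletion, with the mean of all libraries as a black line and the median of all gene loci tested dashed. Every library lies above the median of 9.37 at every locus, and Pax9 is highest by mean (61.5).

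The highest level depended on how near the gene a peak had to lie. Counting peaks that overlap the gene body alone, the ratio of the highest to the lowest Pax level rose from 2.47 to 4.03, since Pax9 was at 76.8 and Pax4 at 19.5 CPM per kb. The place of Pax3 depended on the window as well. With peaks up to 20 kb away, Pax3 was at 32.1 CPM per kb and thus above Pax5 at 28.3. The strongest peak of Pax4, at chr6:28450308-28452368 with 67.3 CPM, lies 0.968 kb outside its gene body and made up 79.9% of its sum. In Pax8 the strongest peak, at chr2:24473624-24476478, covers the gene start and made up 78.4% of the sum. In the other 7 members the strongest peak held 17.9% to 34.7%, so that their mark was spread over several peaks.

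Among these were chr4:44703033-44704875 at Pax5 (201 CPM), chr19:44834315-44836926 at Pax2 (186 CPM) and chr2:147364868-147366370 at Pax1 (124 CPM). Pax7 had its strongest peak at chr4:139821100-139822397 (112 CPM) and Pax6 at chr2:105666281-105667966 (107 CPM), 0.93 kb outside the gene body. Pax9 had it at chr12:56696329-56697561 (85.9 CPM) and Pax3 at chr1:78196426-78197456 (77.1 CPM), which covers the end of the gene with the higher coordinates. Some Pax peaks also overlap other genes, and Cut&Tag counts carry no strand, so they cannot be assigned to 1 of them. At Pax6, 6 of 13 peaks overlap Pax6os1 and 2 overlap Paupar, both noncoding RNA genes. At Pax4, 2 of 5 overlap Fscn3.

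Peaks also overlapped the promoter windows of the other genes that had one, and that of Pax1 was its strongest peak. Those of Pax2 held 74.9 CPM (chr19:44746368-44747053) and 172 CPM (chr19:44755629-44757716), that of Pax5 64.9 CPM (chr4:44710777-44712278) and that of Pax7 51.1 CPM (chr4:139832629-139833513). Their log2 fold changes in the Wnt6 deletion were -0.19 (SE 0.097) and -0.09 (SE 0.084) for Pax2, -0.17 (SE 0.108) for Pax5 and -0.06 (SE 0.108) for Pax7, with edgeR adjusted p of 0.920 or more.

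No Pax peak and no Pax locus passed the study's threshold, an absolute log2 fold change over 1 with an adjusted p under 0.05, in any of the 3 comparisons. Of all peaks tested, 0.0497% were called in the Wnt6 deletion, 1.55% in the Hoxa deletion and 0.0282% in the Hmx1 deletion. Of all gene loci, 0.0387%, 0.771% and 0.029% were called. At an unadjusted p under 0.05, edgeR's quasi-likelihood test had 4 of 156 Pax peaks in the Wnt6 deletion (5.2% of all peaks), 22 in the Hoxa deletion (20.8%) and 8 in the Hmx1 deletion (8.96%), and DESeq2 called no Pax peak or locus either. With the counts of all peaks of a member summed into a locus sum, the 27 fitted log2 fold changes lay between -0.12 and 0.17, and their 95% intervals between -0.29 and 0.33, so that a change of 1 on the log2 scale lay outside each interval.

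**Figure D2:**
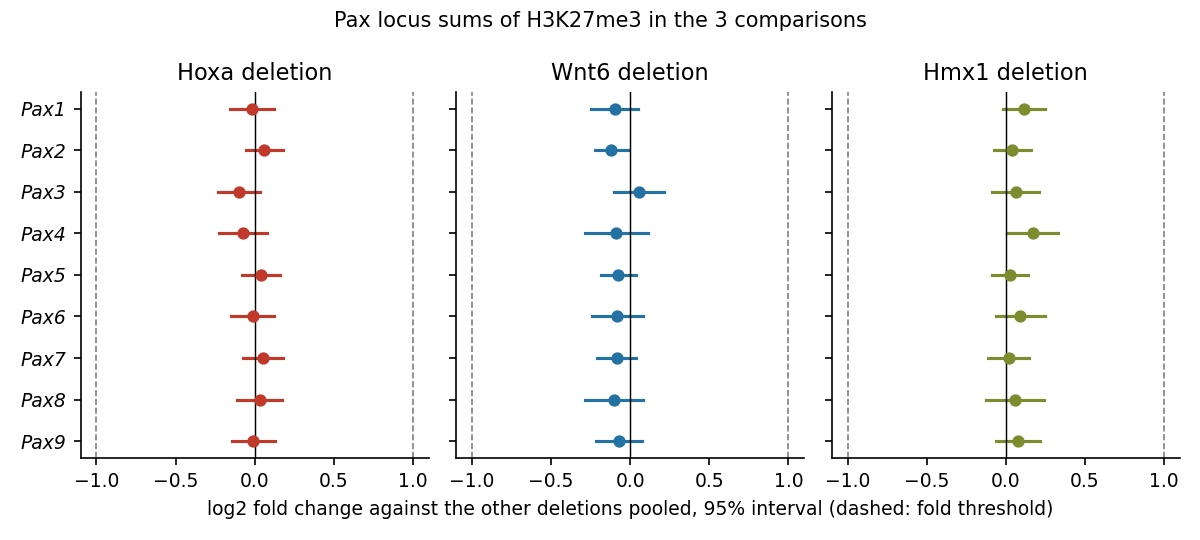
Fitted log2 fold change (x axis) of the H3K27me3 locus sum of each Pax gene (y axis) in each deletion against the other 2 pooled, with 95% intervals as lines and the fold threshold dashed. All intervals lie between -0.29 and 0.33.

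Pax3, the loop partner of Wnt6 and a regulator of neural crest and limb muscle precursors, was the first question. Its locus, with a gene body at chr1:78101267-78197136, held 403.3 and 392.9 CPM in the Wnt6 deletion, 396.0, 365.9 and 354.4 CPM in the Hoxa deletion, and 389.3 and 409.3 CPM in the Hmx1 deletion. The Wnt6 libraries lay within the range of the others. The log2 fold change in the Wnt6 deletion was 0.056 (SE 0.071, 95% interval -0.10 to 0.21, edgeR adjusted p = 0.904). Against the Hoxa deletion alone it was 0.10 and against the Hmx1 deletion alone -0.012. Pax3 was the 1 member of 9 above 0 in this comparison, while the median of all loci was -0.033.

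The other locus sums differed little as well. Pax2, a regulator of kidney and optic stalk, held 823.6 and 789.4 CPM in the Wnt6 deletion, 889.8, 851.4 and 888.4 CPM in the Hoxa deletion, and 860.1 and 887.8 CPM in the Hmx1 deletion. Both Wnt6 libraries were below all others, and the log2 fold change was -0.12 (SE 0.047, edgeR adjusted p = 0.846). Chromosome 19, which holds Pax2, had a median of -0.057 in the Wnt6, 0.078 in the Hoxa and -0.075 in the Hmx1 deletion. Its part in the Pax2 values was not tested. Pax5 and Pax7 were likewise below all others in the Wnt6 deletion, with 731.3 and 693.3 CPM against 735.5 to 770.5 CPM for Pax5 and 556.8 and 542.4 CPM against 557.7 to 605.9 CPM for Pax7. Loci with no overlap in that direction made up 5.82% of all loci, and none of the 3 passed the test (adjusted p of 0.846 to 0.851, with 0.0452% of all loci under 0.05).

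In the Hmx1 deletion, Pax1 and Pax4 were above all other libraries, as were 6.7% of all loci. Pax4, which specifies the insulin-producing cells of the pancreas, held 90.3 and 92.6 CPM there, 86.6, 82.7 and 76.2 CPM in the Hoxa deletion, and 83.5 and 77.9 CPM in the Wnt6 deletion. Its log2 fold change in the Hmx1 deletion was 0.17 (SE 0.074, edgeR adjusted p = 0.357). Pax1 held 376.8 and 380.5 CPM against 329.4 to 363.6 CPM, with a log2 fold change of 0.12 (SE 0.062, adjusted p = 0.446), and 0.0484% of all loci had an adjusted p under 0.05 in this comparison. All 9 members were above 0 in the Hmx1 deletion, but 6 of them turned below 0 when library scaling was allowed to depend on abundance, so no direction is given for the family.

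Pax6, needed for eye and pancreas, held 609.6 and 537.3 CPM in the Wnt6 deletion, 637.1, 595.9 and 549.4 CPM in the Hoxa deletion, and 606.0 and 643.7 CPM in the Hmx1 deletion. Pax8, a thyroid and kidney regulator, held 201.8 and 180.2, 214.3, 208.9 and 187.0, and 204.7 and 208.9 CPM in the same order. Pax9, which is needed for teeth and pharyngeal pouches, held 446.3 and 397.3, 449.4, 421.7 and 435.0, and 446.6 and 462.4 CPM. The groups of all 3 genes overlapped in each comparison. In the Hoxa deletion no Pax locus lay outside the range of the other libraries, against 25.7% of all loci, and Pax4, on the chromosome of the Hoxa cluster, had a log2 fold change of -0.071 (SE 0.075, adjusted p = 0.596).

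Single peaks gave a different picture of Pax3 in the Hoxa deletion. Of its 27 peaks, 22 were below 0, with a median log2 fold change of -0.35, and 12 had an unadjusted p under 0.05, or 44.4% beside 20.8% of all peaks. Libraries of the Hoxa deletion were below all others at 10 of the 27 (37.0% beside 9.19% of all peaks). The 3 peaks with an edgeR adjusted p under 0.05 were all lower, beside 4.2% of all peaks, although none reached the fold threshold in this fit. The count was 1 without replicate 2 of the Hmx1 deletion, without replicate 2 of the Wnt6 deletion, in DESeq2, with replicate number as a block, on downsampled counts and against the Hmx1 deletion alone.

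The peak with the smallest p, chr1:78140515-78141086, held 5.05, 6.27 and 6.51 CPM in the Hoxa deletion, 10.91 and 10.97 CPM in the Wnt6 deletion, and 10.7 and 9.09 CPM in the Hmx1 deletion. All 3 Hoxa libraries were below the other 4. Its log2 fold change was -0.77 (SE 0.157, edgeR adjusted p = 0.000508), and the adjusted p stayed under 0.05 in all 21 fits, between 2.5e-04 and 0.0297. It passed the fold threshold on downsampled counts alone, at -1.12. The peak at chr1:78133827-78134642 held 5.88, 3.67 and 2.90 CPM in the Hoxa deletion, 5.97 and 6.43 CPM in the Wnt6 deletion, and 6.59 and 6.10 CPM in the Hmx1 deletion. The fitted difference was a log2 fold change of -0.67 (SE 0.196, adjusted p = 0.0222). The peak at chr1:78181854-78182356 held 6.47, 6.92 and 7.22 CPM in the Hoxa deletion, 9.47 and 9.09 CPM in the Wnt6 deletion, and 12.5 and 8.89 CPM in the Hmx1 deletion. Here the fit gave a log2 fold change of -0.49 (SE 0.157, adjusted p = 0.0398). Both lay below all others too, and both passed 0.05 only in part of the 21 fits (12 and 8).

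These peaks lay in 1 section of the gene. Between chr1:78103297 and 78182356, a span of 79.1 kb inside the gene body, all 19 Pax3 peaks were below 0 in the Hoxa deletion, with a median of -0.49. The sums over these 19 peaks were 78.9, 80.7 and 70.2 CPM in the Hoxa deletion, 113 and 104 CPM in the Wnt6 deletion, and 102 CPM in both Hmx1 libraries. The Hoxa libraries were thus the 3 lowest, and they did not overlap with the others. Over the 8 stronger peaks between chr1:78189508 and 78204849, which include the end of the gene with the higher coordinates, the sums were 317, 285 and 284 CPM in the Hoxa deletion, 290 and 289 CPM in the Wnt6 deletion, and 287 and 307 CPM in the Hmx1 deletion. There the groups overlapped, and the median log2 fold change was 0.0094. The division into these sections was made after the values were seen and was not tested.

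**Figure D3:**
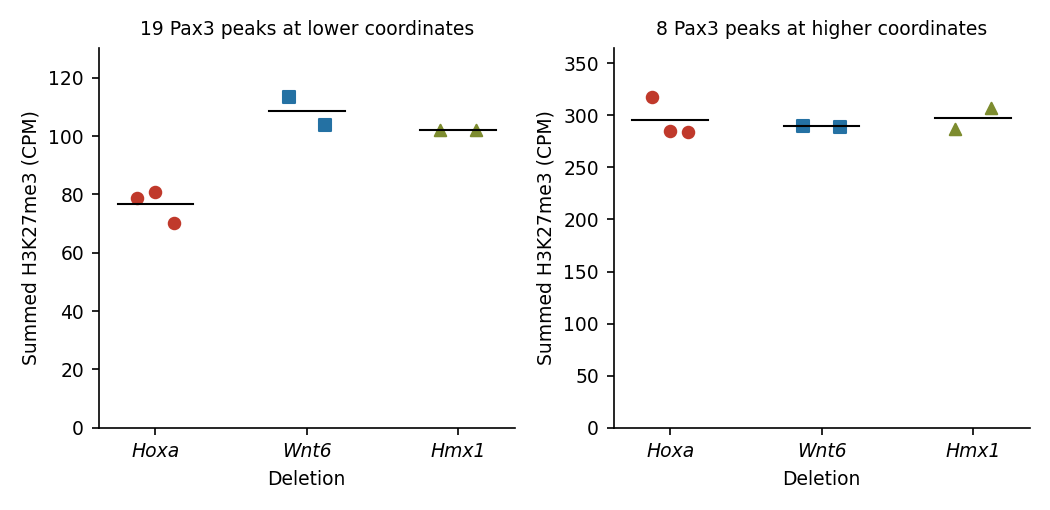
Summed H3K27me3 in CPM (y axes, from 0) over the 19 Pax3 peaks at lower coordinates and the 8 at higher coordinates, by deletion (x axes), 1 point per library and the mean as a line. On the left the 3 Hoxa points (70.2 to 80.7) lie below all others (102 to 113), and on the right the groups overlap.

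The Wnt6 comparison held the counterpart of these values, as its pooled controls include the Hoxa libraries. All 19 peaks of the weaker section were above 0 in the Wnt6 deletion, with a median of 0.31. Against the Hoxa deletion alone the median was 0.42 with 19 of 19 above 0, and against the Hmx1 deletion alone it was 0.13 with 15 of 19. The 3 Pax peaks with the smallest p in the Wnt6 deletion were all in this section, at chr1:78108115-78108463, chr1:78140515-78141086 and chr1:78146737-78147024, with log2 fold changes of 0.74 (SE 0.273), 0.56 (SE 0.218) and 0.69 (SE 0.291), and none passed the test (edgeR adjusted p = 0.920 for each, with 0.0564% of all peaks under 0.05). Against the Hoxa deletion alone, the first and the second had an adjusted p of 0.0356 and 0.000659, with log2 fold changes of 0.89 and 0.86, and against the Hmx1 deletion alone none of the 19 peaks passed. At chr1:78108115-78108463, the Wnt6 libraries held 5.66 and 3.63 CPM, the Hoxa libraries 1.65, 2.33 and 2.96 CPM and the Hmx1 libraries 3.21 and 3.15 CPM.

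**Figure D4:**
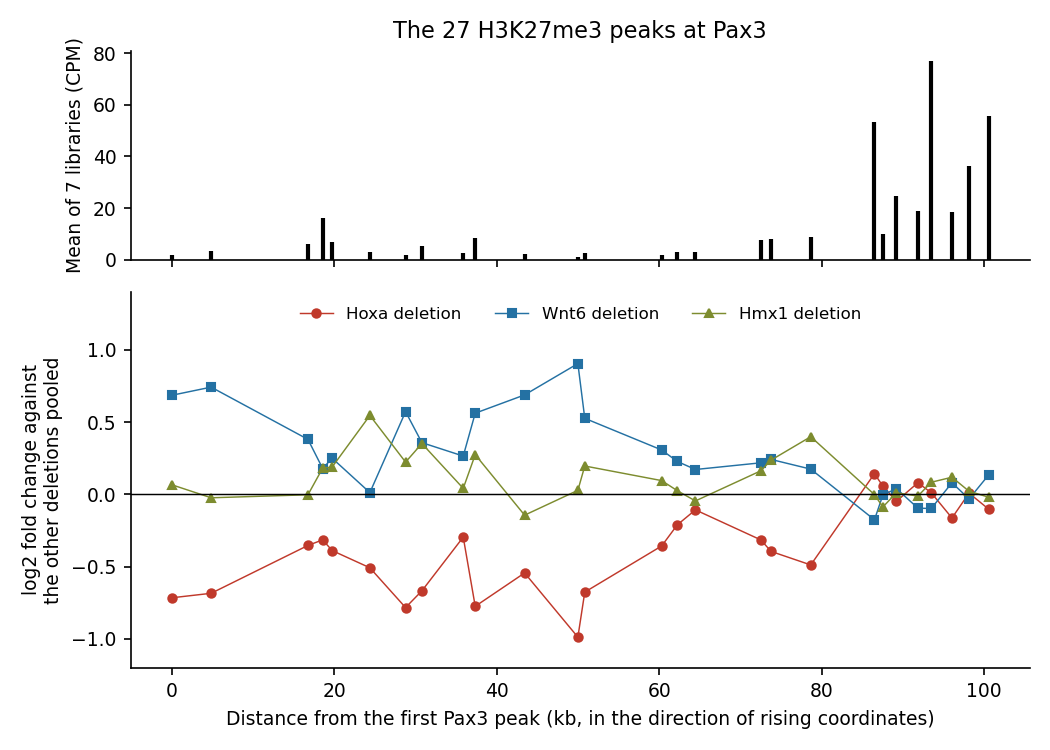
The 27 Pax3 peaks by distance from the first peak in kb (x axis), with the mean CPM of 7 libraries (upper y axis) and the log2 fold change of each deletion against the other 2 pooled (lower y axis). In the weak peaks on the left the Hoxa values are all below 0 and the Wnt6 values all above 0, and over the strong peaks on the right the 3 comparisons lie near 0.

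Weak peaks of the other members fell on both sides of 0. Under 10 CPM, 18 of 19 Pax3 peaks were below 0 in the Hoxa deletion, with a median of -0.49, whereas 33 of 66 peaks of the other members were above 0, with a median of 0.0026. All 57276 peaks under 10 CPM had a median of -0.016. From 10 CPM upwards the median was -0.020 over 8 Pax3 peaks and 0.010 over 63 peaks of the other members. The difference between genes was not tested. Nor was the direction limited to the Pax3 window. Up to 500 kb on either side of it, 33 of the 39 peaks were below 0 in the Hoxa deletion, with a median of -0.20. At an edgeR adjusted p under 0.05 there were 3 of the 39, beside 6345 of all 74439 peaks. Around the other members the median of the peaks up to 500 kb away lay between -0.12 and 0.14. Of these peaks, 40 of 54 were below 0 around Pax6, 36 of 51 around Pax1 and 30 of 43 around Pax9. For Pax8 it was 29 of 42 and for Pax4 21 of 36. It was 17 of 42 for Pax5, 27 of 86 for Pax7 and 33 of 159 for Pax2. The counts under an adjusted p of 0.05 around these members ran from 0 of 42 (Pax8) to 14 of 159 (Pax2).

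**Figure D5:**
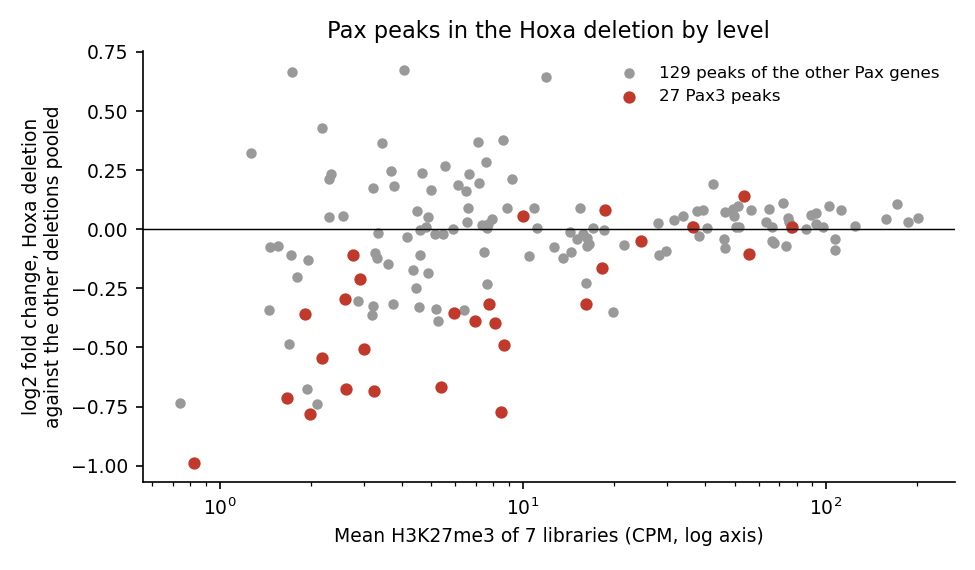
Log2 fold change in the Hoxa deletion against the other 2 pooled (y axis) by mean CPM of 7 libraries (x axis, log scale) for the 27 Pax3 peaks (red) and the 129 peaks of the other Pax genes (grey). Of the 19 red points under 10 CPM, 18 lie below 0, and the grey points lie on both sides.

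The remaining 2 Pax peaks with an adjusted p under 0.05 in the Hoxa deletion were higher, as were 4.32% of all peaks. The Pax2 peak at chr19:44808476-44809376 held 13.2, 16.7 and 14.6 CPM in the Hoxa deletion, 11.5 and 8.73 CPM in the Wnt6 deletion, and 9.30 and 9.29 CPM in the Hmx1 deletion. The fit gave a log2 fold change of 0.64 (SE 0.139, edgeR adjusted p = 0.00121), which passed 0.05 in 20 of 21 fits. The Pax5 peak at chr4:44531389-44531767 held 5.41, 4.43 and 5.86 CPM, 3.29 and 3.92 CPM, and 2.87 and 2.60 CPM in the same order, with a log2 fold change of 0.67 (SE 0.205, adjusted p = 0.0291). It passed 0.05 in 13 of 21 fits, with an adjusted p of up to 0.332, and was lost without replicate 1 (0.0805) or 3 (0.156) of the Hoxa deletion and without replicate 2 of the Hmx1 deletion (0.154). At both peaks the Hoxa libraries lay above all others. This Pax5 peak, in the gene of the B cell regulator, also had the smallest p of the Pax peaks in the Hmx1 deletion, with -0.76 (SE 0.270, adjusted p = 0.419). It was followed there by the Pax1 peak at chr2:147373185-147374137, with 0.27 (SE 0.096, adjusted p = 0.433), and the Pax9 peak at chr12:56709599-56709942, with 0.76 (SE 0.318, adjusted p = 0.50), and 0.0309% of all peaks were under 0.05.

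The genes Six2 to Six6, Eya1 to Eya4, Dach1 and Dach2 encode factors that form a network with Pax factors in the eye, ear, kidney and muscle. The 11 listed loci reported here all had a peak, with 5.88 to 64.7 CPM per kb. None was called, and at an adjusted p under 0.05 there were 0 in the Wnt6 deletion, 2 higher and 0 lower in the Hoxa deletion (beside 12% and 6.06% of all loci) and 0 in the Hmx1 deletion, with medians of -0.081, 0.048 and -0.048, where those of all loci were -0.033, 0.046 and -0.035. Unadjusted p was under 0.05 at 0, 3 and 2 of the 11, beside 5.67%, 28.9% and 13.1% of all loci. Eya1, a phosphatase and coactivator of these factors, held 34.9, 30.4 and 32.4 CPM in the Hoxa deletion, 25.2 and 22.2 CPM in the Wnt6 deletion, and 21.3 and 25.4 CPM in the Hmx1 deletion, and rose by 0.45 on the log2 scale (SE 0.102, edgeR adjusted p = 0.00117). Six5 held 145, 134 and 133 CPM, 114 and 115 CPM, and 106 and 101 CPM in the same order and rose by 0.33 (SE 0.067, adjusted p = 4.2e-04). In the Wnt6 deletion the 2 highest log2 fold changes of the list were 0.075 for Eya4 and -0.011 for Eya2, and the 2 lowest -0.30 for Eya1 and -0.27 for Six4, with adjusted p of 0.848 or more.

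The 12 listed target genes of Pax factors gave 0 loci at an adjusted p under 0.05 in the Wnt6 deletion, 0 higher and 1 lower in the Hoxa deletion and 0 in the Hmx1 deletion, with medians of 0.0071, -0.075 and 0.095, and none was called. Over all loci, 12% were higher and 6.06% lower in the Hoxa deletion. Unadjusted p was under 0.05 at 1, 3 and 1 of the 12, beside 5.67%, 28.9% and 13.1% of all loci. The locus that fell was Slc5a5 on chromosome 8, the thyroid iodide transporter that Pax8 activates. It held 70.5, 67.4 and 70.4 CPM in the Hoxa deletion, 123 and 108 CPM in the Wnt6 deletion, and 105 and 103 CPM in the Hmx1 deletion, and fell by 0.66 on the log2 scale (SE 0.073, edgeR adjusted p = 2.16e-08). In the Wnt6 deletion the 2 highest log2 fold changes were 0.48 for Slc5a5 and 0.23 for Tg, the thyroglobulin gene, and the 2 lowest -0.10 for Neurog2 and -0.096 for Gata3, with adjusted p of 0.846 or more. Of the 7 mESC markers with a peak, 2 were higher in the Hoxa deletion at an adjusted p under 0.05 and 0 lower, namely Klf4 and Tfcp2l1, by 0.60 and 0.84 on the log2 scale (adjusted p of 4.61e-06 and 0.000593). Zfp42, which like Slc5a5 lies on chromosome 8, had a log2 fold change of -0.55 (adjusted p = 0.115). Whether chromosome 8 as a whole differed was not tested. The part of these marker differences in the Pax values was not tested.

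The genes with a pattern over the 7 libraries most like that of the Pax3 sum, by the root mean square difference of centred log2 CPM, were Gm52111 (0.0172), Rtp4 (0.0257) and Mir1188 (0.0263) among 30988 loci. Over the same libraries the Pax3 sum had an SD of 0.0757 on the log2 scale. Gm52111 held only 6.24 CPM on average. Among the other members, Pax4 came nearest with 0.0739, at rank 1905 of the 30988 loci, and Pax2 was farthest with 0.101.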

How the data were processed

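The authors deposited raw counts per peak for 7 H3K27me3 Cut&Tag libraries, with no normalization. The submitters' processing notes name mm10, Trimmomatic, Bowtie2, SAMtools, Picard, MACS2 and deepTools without versions, and how the peak list was made and whether duplicates were removed is not given in the sources used here. Peak positions are printed as deposited, and whether starts count from 0 or 1 is not given.

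Groups follow the sample titles. Counts were tested in edgeR 4.0.16 (R 4.3.3, limma 3.58.1) with glmQLFit and glmQLFTest, after filterByExpr by genotype, which kept 74439 peaks, and with TMM factors. Locus sums add the peaks within 10 kb of each RefSeq gene and use the factors of the peaks. P-values were adjusted by Benjamini-Hochberg over all peaks or loci, and 95% intervals cover the spread between libraries only. The procedure was tested on simulated counts with no difference between the pooled deletions. Planted changes were larger than those fitted at the Pax peaks, so changes of that smaller size were not covered. DESeq2 1.42.0 was an alternative, and the others are given in the closing section. Named are all members, the strongest and start peaks, the 3 smallest p per comparison, all calls, the peaks with an adjusted p under 0.05, and the 2 highest and lowest of each list in the Wnt6 deletion. 1 gene of the list of factors in a network with Pax is not reported here. The members and lists were chosen with earlier results of these data known. Plots used Python 3.11.15 and matplotlib 3.10.9.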

Additional observations from a re-analysis of the deposited data

How the results depend on the processing

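Locus sums were recomputed in 23 other fits or windows and named peaks in 20 other fits, and the comparisons with single deletions share libraries with the pooled ones. The absence of called Pax peaks and loci held in 142 of 144 recomputed counts. In the Hoxa deletion, 1 Pax peak was called on downsampled counts and 5 without a fold minimum. The 1 peak was that of Pax3 at chr1:78140515-78141086, with a log2 fold change of -1.12. Of the 621 recomputed locus sums, 572 kept their sign and their side of the threshold. Abundance-dependent offsets brought Pax2, Pax5 and Pax7 under an adjusted p of 0.05 in the Hoxa deletion (0.13, 0.10 and 0.11 on the log2 scale). With chromosome medians removed, 499 of all peaks rather than 1153 were called in the Hoxa deletion, and 126 of all loci rather than 239. The shares over all peaks and loci given for this deletion thus depend on that setting. The Pax3 sum in the Wnt6 deletion was 0.029 with replicate number as a block and -0.012 against the Hmx1 deletion alone, with 0.029 to 0.081 when libraries were left out. Deviations of same-numbered libraries correlated with r of -0.060 to 0.074, and those of libraries with different numbers with r of -0.12 to 0.12. In a deletion with 2 libraries the deviations mirror each other, so these values cannot decide whether the numbers pair libraries. The block added no Pax peak or locus past the fold threshold.

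Signs turned at 46 sums near 0. In the Hoxa deletion they did so in DESeq2 for Pax5 (-0.0073) and Pax8 (-0.012), with library totals alone for Pax9 (0.0032), with abundance-dependent offsets for Pax1 (0.023), Pax6 (0.044) and Pax9 (0.037), with chromosome medians removed for Pax2 (-0.067), Pax5 (-0.038), Pax7 (-0.024) and Pax8 (-0.017), with the replicate block for Pax6 (0.041), on downsampled counts for Pax8 (-0.035), with windows of 0 kb for Pax6 (0.0031) and 20 kb for Pax8 (-0.0041), against the Wnt6 deletion alone for Pax1 (0.061), Pax4 (0.021), Pax6 (0.050) and Pax9 (0.045), and against the Hmx1 deletion alone for Pax8 (-0.028). In the Hmx1 deletion they did so with library totals alone for Pax5 (-0.00551) and Pax7 (-0.013), with abundance-dependent offsets for Pax2 (-0.088), Pax3 (-0.022), Pax5 (-0.096), Pax6 (-0.016), Pax7 (-0.090) and Pax9 (-0.010), with the window of 0 kb for Pax7 (-0.0061), and against the Hoxa deletion alone for Pax2 (-0.0032), Pax5 (-0.0022) and Pax7 (-0.014). In the Wnt6 deletion, Pax4 turned on downsampled counts (0.067). With each library left out, ranges that crossed 0 were -0.057 to 0.010 for Pax1, -0.069 to 0.041 for Pax6, -0.014 to 0.090 for Pax8 and -0.054 to 0.016 for Pax9 in the Hoxa deletion, -0.175 to 0.0076 for Pax6 and -0.157 to 0.011 for Pax9 in the Wnt6 deletion, and -0.031 to 0.069 for Pax7 in the Hmx1 deletion. The cause was not tested.

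Counts of Pax3 peaks were chosen after seeing the data. Those with an adjusted p under 0.05 in the Hoxa deletion numbered 3, and 1 in DESeq2, with the replicate block, on downsampled counts and against the Hmx1 deletion alone, with 1 to 3 when libraries were left out. Those below 0 numbered 20 to 26 in all fits, and those above 0 in the Wnt6 deletion 17 to 25. DESeq2 gave no adjusted p for 4 of the named peaks outside the Hoxa deletion. The ratio of the highest to the lowest Pax level was 2.47, and 4.03 and 2.67 with windows of 0 and 5 kb. With a cutoff of 25% for the deleted stretch, 0.371% remained for Hoxa and 1.03% for Hmx1, where the stretch takes in further peaks. In the smallest library, with 6016500 counts, the median Pax peak held 49.5 counts.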
